A study of Mus musculus with 2 samples.

Results

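Ly6a, Ly6c1, Ly6c2, Ly6e and Ly6i are members of the Ly6 family of surface proteins, and they were taken as the rows of both count tables whose gene symbol is one of these 5, of 27998 genes listed. Each symbol belonged to 1 gene identifier. The cells were mononuclear phagocytes sorted as MerTk+ CD64+ from B16 melanoma tumors (tumor mononuclear phagocytes, TMPs), and there was 1 droplet-based 3′ single-cell RNA library from Fcmr+/+ mice and 1 from Fcmr-/- mice, with littermates as controls, both on the C57Bl/6 strain. B16 is a melanoma cell line transplanted into mice of the same strain. Fcmr, the receptor for soluble IgM also known as Toso, was disrupted in the whole Fcmr-/- animal and not only in phagocytes, and the number of mice behind each library and their age are not given in the sources used here. Each genotype is 1 library, so variation among mice could not be measured, cells of a library are not replicates, and no test between the genotypes was made. Levels are unique molecular identifiers (UMIs) summed over cells and scaled to a total of 1000000 (CPM). Intervals are exact 95% intervals (Poisson for CPM, Clopper-Pearson for shares, conditional binomial for ratios), and they cover counting error only.

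Ly6 proteins carry a three-finger fold held by disulfide bonds and are tied to the outer face of the membrane by a glycosylphosphatidylinositol (GPI) anchor. Ly6a encodes Sca-1, used to sort hematopoietic stem cells and induced by interferons in many cell types. Ly6c1 and Ly6c2 encode the Ly-6C antigen, by which inflammatory monocytes are recognized and which is lost as monocytes become macrophages. Ly6e is an interferon-stimulated gene whose product alters the entry of viruses into cells, and Ly6i encodes a close relative of Sca-1 and Ly-6C.

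The 5 genes lie together on chromosome 15 of GRCm38 within 156.92 kb. Ly6e (ENSMUSG00000022587) is on the plus strand at chr15:74955051-74959905. The other 4 are on the minus strand, Ly6i (ENSMUSG00000022586) at chr15:74979534-74983430, Ly6a (ENSMUSG00000075602) at chr15:74994877-74998031, Ly6c1 (ENSMUSG00000079018) at chr15:75044018-75048830 and Ly6c2 (ENSMUSG00000022584) at chr15:75108158-75111970. Pairwise comparison of the coding sequences in GENCODE M21 gave 97.7% identity for Ly6c1 and Ly6c2, 86.4% for Ly6a and Ly6i, and 50.5% to 53.8% for Ly6e with each of the others. The libraries count the 3′ ends of transcripts, and there the last 300 bases of Ly6c1 and Ly6c2 were 93.5% identical, while those of Ly6a and Ly6i were 82.4% identical. Of windows of 50 bases in the transcripts, 252 were shared by Ly6c1 and Ly6c2, 40 by Ly6a and Ly6c1, 31 by Ly6a and Ly6i, 3 by Ly6a and Ly6c2, and 0 by Ly6e with any other. Values of Ly6c1 and Ly6c2 are therefore uncertain, since reads of the 2 Ly6c genes can be the same, and the reads were not analysed here. The first 300 of their 396 coding bases (exonic, 5′ to 3′ on the gene's strand) are shown because they show how alike the 2 genes are, although the libraries count bases nearer the 3′ end, and capitals mark the 7 of 9 differing bases that lie in this stretch:
Ly6c1: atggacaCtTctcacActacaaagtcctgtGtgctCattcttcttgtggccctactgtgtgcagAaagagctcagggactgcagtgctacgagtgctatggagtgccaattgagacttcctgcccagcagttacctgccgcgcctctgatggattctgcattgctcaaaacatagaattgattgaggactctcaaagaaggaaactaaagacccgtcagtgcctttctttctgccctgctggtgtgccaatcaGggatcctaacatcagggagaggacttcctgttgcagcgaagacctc
Ly6c2: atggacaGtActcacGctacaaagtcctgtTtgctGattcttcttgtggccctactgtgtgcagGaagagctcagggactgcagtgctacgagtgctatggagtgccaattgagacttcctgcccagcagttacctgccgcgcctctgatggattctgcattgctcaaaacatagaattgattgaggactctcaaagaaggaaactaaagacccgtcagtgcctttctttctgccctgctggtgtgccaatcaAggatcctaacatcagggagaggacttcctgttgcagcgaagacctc
The first 300 of 405 coding bases of Ly6a are shown because this gene differed most between the libraries, and capitals mark the 47 of 55 differing bases in this stretch at which Ly6i, its nearest relative here, has another base:
Ly6a: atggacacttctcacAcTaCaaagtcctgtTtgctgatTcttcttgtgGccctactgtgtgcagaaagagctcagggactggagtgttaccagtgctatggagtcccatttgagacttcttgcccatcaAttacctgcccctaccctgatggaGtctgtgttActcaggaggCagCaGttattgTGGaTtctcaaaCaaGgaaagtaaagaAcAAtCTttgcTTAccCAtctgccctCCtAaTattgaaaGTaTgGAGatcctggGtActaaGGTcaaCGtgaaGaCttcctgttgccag
RefSeq promoters were at hand for Ly6c1 and Ly6c2. The 250 bases before the start of Ly6c2 at chr15:75111972-75112221 (minus strand, GRCm38.p6) hold 1 copy of GAGGAA, the core letters bound by the macrophage factor PU.1, in capitals:
Ly6c2 promoter: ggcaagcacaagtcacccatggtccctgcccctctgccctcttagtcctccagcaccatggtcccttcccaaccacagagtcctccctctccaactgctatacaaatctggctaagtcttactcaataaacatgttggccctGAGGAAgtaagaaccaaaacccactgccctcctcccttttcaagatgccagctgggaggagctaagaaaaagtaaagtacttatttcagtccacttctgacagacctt
On either strand, the letters GAGGAA stand in 23.3% of 32851 promoters of this length, GAAANNGAAA (the interferon-stimulated response element core) in 2.98% and TTCNNNGAA (the gamma-activated site) in 7.02%. A second, overlapping Ly6c2 window held 2 copies of GAGGAA, and each of the 2 overlapping Ly6c1 windows held 1. None of these 4 windows held the 2 interferon patterns, which says only that these letters are not in these windows.

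After limits on genes and mitochondrial UMIs, 6352 of 6392 barcodes were kept in the Fcmr+/+ library and 7999 of 8017 in the Fcmr-/- library. The kept cells held 128408544 and 124630621 UMIs, with medians of 17973.5 and 12911 UMIs per cell, and 73 barcodes were found in both libraries. Since depth differed, shares of cells are given after thinning each cell to 5000 UMIs, which left out 0 cells, with the unthinned share beside them. Fcmr itself had 7 UMIs in Fcmr+/+ and 6 in Fcmr-/- TMPs, too few to check the genotypes. Macrophage identity genes (Csf1r, Adgre1, Cd68, Fcgr1, Mertk, Itgam, C1qa, Lyz2 and Cd14) summed to 14970 CPM in Fcmr+/+ and 15291 CPM in Fcmr-/- cells. The genes of the T and NK cell list summed to 0.942 CPM in Fcmr+/+ and 15.4 CPM in Fcmr-/- cells.

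Ly6a was far higher in Fcmr-/- than in Fcmr+/+ TMPs, and Ly6c2, Ly6e and Ly6i were higher too. Ly6a, with 5398 UMIs in Fcmr+/+ TMPs and 58080 in Fcmr-/- TMPs, stood at 42.04 CPM (interval 40.9 to 43.2) and 466 CPM (interval 462 to 469.8). The ratio was 11.1-fold (interval 10.8 to 11.4; log2 ratio 3.44 after adding 1 CPM). Across the 8701 genes with at least 5 CPM in either library the median log2 ratio was 0.0023, and 69 genes, or 0.793%, were at least 2-fold higher in Fcmr-/- cells. All 4 of the members that passed this filter on low values were among the 69, and Ly6i passed it only through its level in Fcmr-/- cells. Ly6a had the third highest log2 ratio of the 8701 genes, after Iigp1, a GTPase induced by interferon gamma, and Cxcl9, a chemokine that attracts T cells. This rank depends on the added 1 CPM. Without it, Gbp4, a guanylate-binding protein gene at 2.24 CPM in Fcmr+/+ and 29.5 CPM in Fcmr-/- TMPs, had a larger ratio than Ly6a.

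The higher Ly6a level came with more cells that had a UMI and with more UMIs in each such cell. After thinning, a Ly6a UMI was found in 10.6% of Fcmr+/+ TMPs (interval 9.85 to 11.4) and in 46.2% of Fcmr-/- TMPs (interval 45.1 to 47.3). Unthinned, the shares were 18.5% and 59.4%. Cells with a Ly6a UMI held a mean of 4.59 Ly6a UMIs in the Fcmr+/+ library and 12.2 in the Fcmr-/- library, and cells with at least 10 Ly6a UMIs after thinning made up 0.378% and 6.40%. In Fcmr+/+ TMPs, Ly6a was concentrated in few cells: the 5% of cells with most Ly6a held 72.6% of its UMIs, against 36.6% in Fcmr-/- TMPs.

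Ly6c2, the monocyte antigen gene, had 3990 UMIs in Fcmr+/+ TMPs, or 31.1 CPM (interval 30.1 to 32.1), and 13412 in Fcmr-/- TMPs, or 107.6 CPM (interval 105.8 to 109.4). The ratio was 3.46-fold (interval 3.34 to 3.59; log2 ratio 1.76). The share of cells with a Ly6c2 UMI was 8.49% in Fcmr+/+ and 21.2% in Fcmr-/- TMPs after thinning, and 15.5% and 32.7% before. Ly6c2 thus differed less between the libraries than Ly6a did, and the intervals of the 2 ratios lay far apart. Ly6c1, its near copy, had few counted UMIs, with 7 UMIs in 7 of 6352 Fcmr+/+ cells and 41 UMIs in 37 of 7999 Fcmr-/- cells. Its level was 0.0545 CPM in Fcmr+/+ (interval 0.0219 to 0.112) and 0.329 CPM in Fcmr-/- TMPs (interval 0.236 to 0.446), a ratio of 6.03 with a wide interval from 2.68 to 15.9. With the UMIs of both Ly6c genes summed, the log2 ratio was 1.76, the value of Ly6c2 alone. Ly6c1 had too few UMIs to move it, and the sum does not regain reads lost because they map to both genes.

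Ly6e had UMIs in most cells of both libraries. Its level was 267 CPM (interval 264 to 269.6) in Fcmr+/+ and 688 CPM (interval 683 to 693) in Fcmr-/- TMPs, 2.58-fold higher (interval 2.55 to 2.61; log2 ratio 1.36). The share of cells with a Ly6e UMI was 54.9% and 79.8% after thinning, and 80.1% and 91.2% before. The median cell had 1 Ly6e UMI in the Fcmr+/+ and 2 in the Fcmr-/- library at 5000 UMIs. Ly6i was found in few cells, with 173 UMIs in Fcmr+/+ (1.35 CPM, interval 1.15 to 1.56) and 1158 UMIs in Fcmr-/- TMPs (9.29 CPM, interval 8.76 to 9.84). Its ratio was 6.90-fold (interval 5.87 to 8.14; log2 ratio 2.13), and 0.645% and 4.16% of cells had a UMI after thinning.

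**Figure D1:**
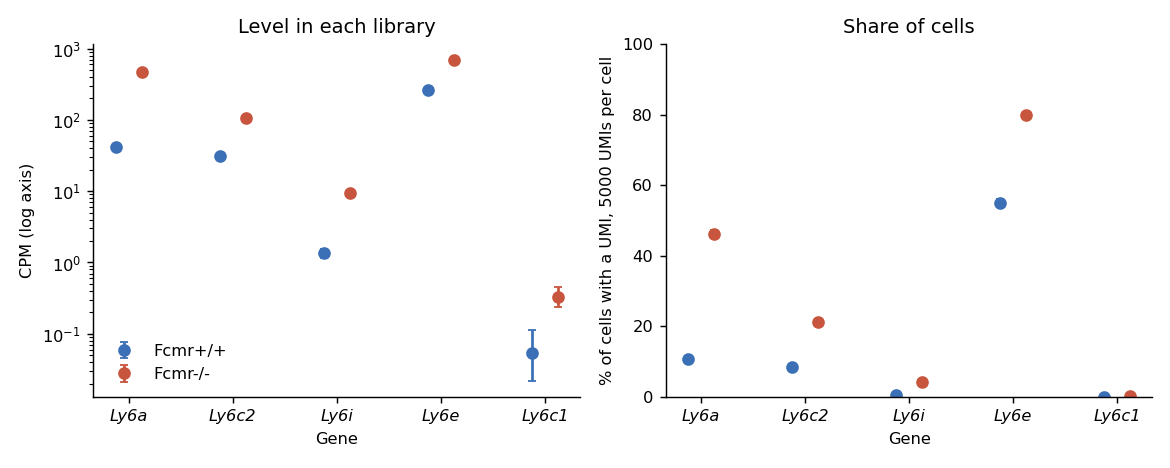
Level (left, CPM on a log axis) and share of cells with a UMI after thinning to 5000 UMIs per cell (right, linear axis from 0) of the 5 Ly6 genes; each point is 1 library and bars are exact 95% counting intervals, often smaller than the point. The Fcmr-/- point is above the Fcmr+/+ point for each gene in both panels, by 11.1-fold for the CPM of Ly6a and by 2.58-fold for Ly6e.

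Other genes of the Ly6 and uPAR family were mostly not expressed. Of 37 such genes on a list, 32 were in the tables, 13 of these had no UMI in either library, and 1 reached 5 CPM. That gene was Plaur, the urokinase receptor, at 249.8 CPM in Fcmr+/+ and 251.4 CPM in Fcmr-/- TMPs (log2 ratio 0.01). The 5 genes of the GPI transamidase, the enzyme that attaches the anchor (Pigk, Gpaa1, Pigs, Pigt and Pigu), all passed the filter, 0 of 5 differed by 2-fold, and their median log2 ratio was -0.03. Below 5 CPM, Cd59a, which encodes an inhibitor of complement, had 612 UMIs in Fcmr+/+ and 499 in Fcmr-/- TMPs, or 4.77 and 4.004 CPM (log2 ratio -0.20). Plaur, Cd59a and the anchoring enzyme were thus not higher by 2-fold in Fcmr-/- TMPs. Of the 8701 genes with at least 5 CPM in either library 0.793% were, so this is what most genes showed and does not set these genes apart.

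To see in which macrophage states the Ly6 genes were expressed, the cells of both libraries were clustered together by the steps of the study. A later version of the software was used, and Ly6 family genes were left out of the variable genes so that they did not shape the clusters. The clusters and their numbers are not those of the study. Of the 10 clusters, cluster 1 was led by Iigp1, Cxcl9 and Serpina3g, genes of the interferon gamma response. Cluster 2 was led by Ccl17, Ifitm1 and Cd209a, and of the marker sets for cell states the monocyte-like set was highest in it relative to other cells. Cluster 3 was led by the inflammatory genes Cxcl3, Il1a and Il1b, cluster 4 by Tfrc and Gas6, and cluster 5 by the cell division genes Ube2c and Top2a. Cluster 6 was led by hemoglobin genes, Nos2 and the hypoxia genes Slc2a1 and Ero1l, cluster 7 by Amica1, Acp5 and Apoe, cluster 8 by Mfge8, Gpnmb and Mmp12, cluster 9 by the type I interferon genes Rsad2 and Ifit1, and cluster 10 by Adm, Pdgfa and the melanocyte gene Dct. Cluster 1 held 90 Fcmr+/+ and 2364 Fcmr-/- cells, so that a state and the Fcmr-/- library cannot be told apart in it.

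Ly6a was higher in Fcmr-/- cells in all 10 clusters, with no interval of a ratio reaching 1. In Fcmr+/+ cells it was lowest in cluster 8 at 4.61 CPM (interval 3.01 to 6.75) and highest in cluster 1 at 248 CPM (interval 226 to 272), followed by 217 CPM (interval 199.7 to 235) in cluster 9, whose interval overlapped that of cluster 1. In Fcmr-/- cells it was lowest again in cluster 8, at 34.0 CPM (interval 30.5 to 37.7), and highest in cluster 9 at 897 CPM (interval 874 to 919.7), followed by cluster 1 at 822 CPM (interval 813 to 830.4). The cells with an interferon response thus held the highest Ly6a levels in both libraries. By ratio, the largest gap between the libraries was in the dividing cells of cluster 5. There Ly6a stood at 16.7 CPM (interval 14.98 to 18.5) in 722 Fcmr+/+ and 473 CPM (interval 463 to 483) in 734 Fcmr-/- cells, a 28.4-fold ratio (interval 25.5 to 31.6). As a difference in CPM, the gap was wider in clusters 9 and 1 than in cluster 5. The smallest gap by ratio was in cluster 7, with 46.3 and 112.9 CPM, a 2.44-fold ratio (interval 2.14 to 2.78).

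Cluster 5 also held T and NK transcripts, so its Ly6a was measured again without them. Of the 1921 UMIs of T and NK genes in Fcmr-/- cells, 1185 were in this cluster, against 2 of 121 in the Fcmr+/+ library. Without the cells that had any such UMI, 716 Fcmr-/- cells remained and Ly6a stood at 460.2 CPM (interval 450.4 to 470.2), while 720 Fcmr+/+ cells gave 16.7 CPM. The gap between dividing cells of the 2 libraries was thus nearly as large without them.

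Ly6c2 was less uniform over the clusters. It was higher in Fcmr-/- cells in 8 of 10, lower in 1, and within counting error in 1. In cluster 9 it stood at 137 CPM (interval 123 to 152) in Fcmr+/+ and 425 CPM (interval 409.6 to 441) in Fcmr-/- cells, a 3.11-fold ratio (interval 2.79 to 3.47). In cluster 1, where its Fcmr+/+ level was 138 CPM (interval 122 to 156), the ratio was only 1.15-fold (interval 1.02 to 1.31). In cluster 7 the order was turned, with 63.3 CPM (interval 58.3 to 68.6) in Fcmr+/+ and 50.04 CPM (interval 43.6 to 57.2) in Fcmr-/- cells, a ratio of 0.791 (interval 0.673 to 0.925). In other clusterings, Ly6c2 had an interval above 1 in 6 of 6 clusters at resolution 0.4 and in 12 of 15 at resolution 1.2. It had one in 8 of 10 with Ly6 genes kept among the variable genes, and in 9 of 10 with interferon genes also left out. Among these clusterings, clusters without an interval above 1 were thus absent only at resolution 0.4. In cluster 8 the interval of the ratio, 0.993 to 1.78, held 1. The largest ratios were 6.43-fold in the dividing cluster 5 (5.40 and 34.7 CPM) and 5.77-fold in the hypoxic cluster 6 (14.9 and 85.8 CPM), both from low Fcmr+/+ levels.

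Ly6e was higher in Fcmr-/- cells in all 10 clusters, by 1.43-fold in cluster 3 up to 3.35-fold in cluster 5. It was lowest in cluster 10 (93.8 CPM in Fcmr+/+ and 163 CPM in Fcmr-/- cells) and highest in cluster 9 (677 and 1216 CPM), followed in Fcmr-/- cells by cluster 2 at 1049 CPM. Ly6i was higher in Fcmr-/- cells in 6 clusters and within counting error in the other 4, with its highest levels in cluster 9 at 12.1 CPM (interval 8.32 to 17.0) and 30.9 CPM (interval 26.8 to 35.4). It had 0 UMIs in cluster 10 of both libraries, where 3 counts would be 0.298 CPM in Fcmr+/+ and 1.06 CPM in Fcmr-/- cells and the exact 95% intervals reach 0.367 and 1.31 CPM. For Ly6c1 the interval of every ratio held 1 or no ratio could be taken, at 26 UMIs or fewer in any cluster of a library.

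The libraries differed both in the levels within clusters and in the mix of clusters. With the cluster levels of each library set to the Fcmr+/+ mix, the Ly6a ratio was 5.57-fold, and at the Fcmr-/- mix 4.04-fold, against 11.1-fold with each library's own mix. For Ly6c2 these were 1.87-fold and 1.54-fold against 3.46-fold, for Ly6e 1.99-fold and 1.73-fold against 2.58-fold, and for Ly6i 3.09-fold and 2.00-fold against 6.90-fold. The mix was the share of a library's UMIs in each cluster. The Fcmr-/- mix gives much weight to cluster 1, where the Fcmr+/+ levels rest on 90 cells with 467 Ly6a and 19 Ly6i UMIs. The values at that mix are therefore less certain. Without cluster 1 the log2 ratio over all other cells was 2.82 for Ly6a, 1.42 for Ly6c2, 1.10 for Ly6e and 1.61 for Ly6i.

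Free RNA in droplets can give a cell UMIs of a gene it does not express, and no cell type known to lack these genes was sorted, so the clusters with the lowest shares serve as the reference. After thinning, 1.80% of Fcmr+/+ cells in cluster 8 (median 19896 UMIs) and 1.83% in cluster 4 (median 23391 UMIs) had a Ly6a UMI. The Fcmr-/- cells of those clusters had 13.1% (median 12760 UMIs) and 17.2% (median 16448 UMIs). Shares within a library ran up to 37.8% in Fcmr+/+ and 74.4% in Fcmr-/- cells of cluster 1, so that they differed between clusters well beyond counting error. In clusters 8, 10 and 4, where Ly6a was lowest in both libraries, its ratio between them was 7.37-fold, 10.1-fold and 7.54-fold. Over all cells it was 11.1-fold. Free RNA was not measured, and its part in the Ly6a of these clusters was not tested.

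**Figure D2:**
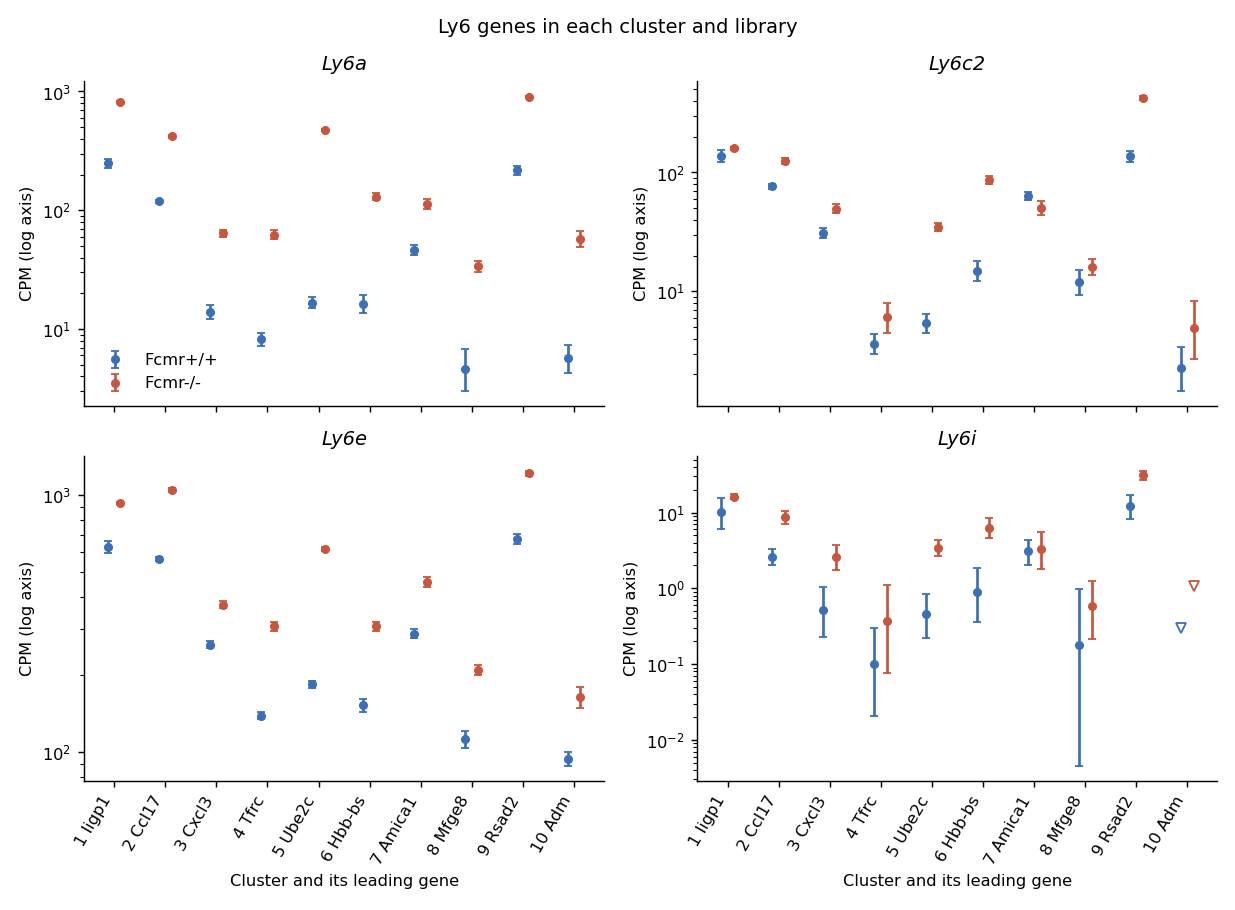
CPM (log axes) of Ly6a, Ly6c2, Ly6e and Ly6i in each of the 10 clusters, named by number and leading gene, for Fcmr+/+ (blue) and Fcmr-/- (red) cells; bars are exact 95% Poisson intervals, and open triangles mark the limit of 3 counts where no UMI was found. Ly6a and Ly6e are higher in Fcmr-/- cells in all 10 clusters, with the widest gap by ratio in cluster 5, and Ly6c2 is lower in cluster 7.

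Cells with Ly6c2 transcripts had more Ly6a than cells without, in both libraries, yet the Fcmr-/- cells without Ly6c2 had more Ly6a than the Fcmr+/+ cells with it. In the Fcmr+/+ library, Ly6a stood at 137 CPM (interval 132 to 143) in the 984 cells with a Ly6c2 UMI and at 24.3 CPM (interval 23.4 to 25.2) in the 5368 cells without. The ratio was 5.66-fold (interval 5.37 to 5.98; log2 ratio 2.45 after adding 1 CPM). By that log2 ratio Ly6a ranked first of 8703 genes, of which 0.655% were at least 2-fold higher in cells with Ly6c2. In the Fcmr-/- library, Ly6a stood at 759 CPM (interval 750.4 to 767) in the 2613 cells with a Ly6c2 UMI and at 306 CPM (interval 303 to 310.3) in the 5386 cells without. That ratio was 2.48-fold (interval 2.43 to 2.52; log2 ratio 1.30), rank 18 of 8650 genes by the log2 ratio, of which 0.393% were at least 2-fold higher. Median depth was close on both sides, at 16477 and 18162 UMIs per cell with and without Ly6c2 in Fcmr+/+, and 13256 and 12748 UMIs in Fcmr-/- TMPs.

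As a ratio, the Ly6a level thus differed more between the libraries in cells without Ly6c2 (24.3 against 306 CPM) than in cells with it (137 against 759 CPM). By the number of Ly6c2 UMIs in cells thinned to 5000 UMIs, Ly6a in Fcmr+/+ cells stood at 36.3 CPM with 0, 80.5 with 1, 159 with 2, 384 with 3 to 5 and 879 CPM with 6 or more. In Fcmr-/- cells the levels at the same steps were 315, 634, 849, 1052 and 1415 CPM. Fcmr+/+ cells with 3 to 5 and with 6 or more Ly6c2 UMIs thus had more Ly6a than Fcmr-/- cells with 0. The ratio between the libraries was thus smaller at each step of more Ly6c2. The difference in CPM was largest at 2 Ly6c2 UMIs and smaller at 3 to 5 and at 6 or more. There were 5813 Fcmr+/+ and 6306 Fcmr-/- cells at 0 UMIs and 63 and 284 cells at 6 or more. In that last step, 69.8% of Fcmr+/+ (interval 57.0 to 80.8) and 84.2% of Fcmr-/- cells (interval 79.4 to 88.2) had a Ly6a UMI, with overlapping intervals, against 8.48% and 39.2% of cells with 0 Ly6c2 UMIs.

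**Figure D3:**
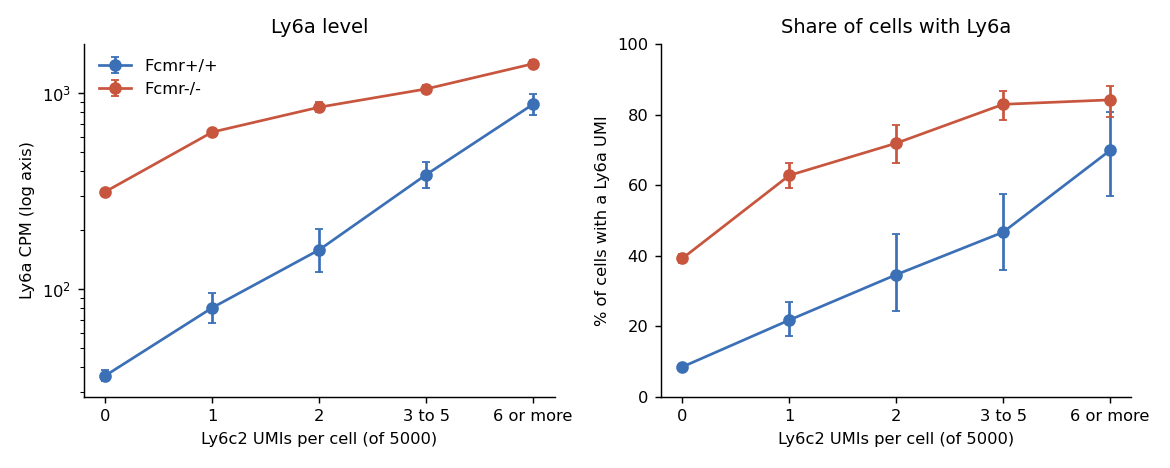
Ly6a level (left, CPM on a log axis) and share of cells with a Ly6a UMI (right, linear axis from 0) by the number of Ly6c2 UMIs in a cell, after thinning to 5000 UMIs per cell; lines join the steps of 1 library and bars are exact 95% counting intervals. Ly6a is higher with more Ly6c2 in both libraries, from 36.3 to 879 CPM in Fcmr+/+ and from 315 to 1415 CPM in Fcmr-/- cells, and the Fcmr-/- line lies above throughout.

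Split into classes by detection after thinning, 2.83% of Fcmr+/+ and 15.2% of Fcmr-/- cells had UMIs of both genes, 7.76% and 30.9% had Ly6a only, 5.65% and 5.93% had Ly6c2 only, and 83.8% and 47.9% had neither. The share with Ly6c2 only was within counting error of the same in both libraries (intervals 5.10 to 6.25 and 5.42 to 6.47). The classes that were larger in the Fcmr-/- library, as shares of all cells, were thus those with Ly6a. The cells without Ly6a were fewer there, however. Of them, 359 of 5679 Fcmr+/+ and 474 of 4306 Fcmr-/- cells had Ly6c2, a larger part in the Fcmr-/- library.

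The link of Ly6a with Ly6c2 was also seen among cells of like depth and like state. Within quartiles of UMIs per cell, the log2 ratio of Ly6a in cells with to cells without Ly6c2 was 2.27 to 2.57 in Fcmr+/+ cells, and in Fcmr-/- cells 1.92, 1.96, 1.54 and 0.85 from the lowest to the highest quartile. Among clusters with at least 50 cells on each side, the log2 ratio was 0.40 to 2.98 in the 7 such clusters of the Fcmr+/+ library and 0.50 to 1.84 in the 8 of the Fcmr-/- library. The interval held 0 in cluster 6 of the Fcmr+/+ library (-0.43 to 1.19). The lowest Fcmr-/- value was in cluster 1, with 963 CPM of Ly6a in 1171 cells with Ly6c2 and 682 CPM in 1193 cells without, so that in this cluster Ly6a was high whether or not Ly6c2 was found.

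Ly6e and Ly6i also went with Ly6c2. Ly6e stood at 552 CPM in cells with and 214 CPM in cells without a Ly6c2 UMI in the Fcmr+/+ library (2.58-fold, interval 2.52 to 2.64), and at 951 and 545 CPM in the Fcmr-/- library (1.75-fold, interval 1.72 to 1.77). Ly6i stood at 5.46 and 0.582 CPM in Fcmr+/+ cells (9.38-fold, interval 6.82 to 12.996) and at 20.4 and 3.25 CPM in Fcmr-/- cells (6.27-fold, interval 5.46 to 7.22). These folds were larger than those of Ly6a, with 63 and 262 Ly6i UMIs in cells without Ly6c2. After adding 1 CPM, the log2 ratio of Ly6i was below that of Ly6a in Fcmr+/+ cells (2.03 against 2.45). In Fcmr-/- cells it was above (2.33 against 1.30). The Ly6c2 ratios of Ly6a and Ly6e were smaller in the Fcmr-/- library, with intervals apart, and those of Ly6i overlapped.

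The same held for pairs of genes found in 1 cell. Co-detection is given as the observed number of cells with both genes over the number expected if the 2 were independent, after thinning. For Ly6a and Ly6c2, 180 Fcmr+/+ cells had both against 57.1 expected, a ratio of 3.15 (interval 2.71 to 3.65), and 1219 Fcmr-/- cells against 782 expected, a ratio of 1.56 (interval 1.47 to 1.65). Among the 6 pairs without Ly6c1, Ly6c2 and Ly6i had the highest ratios, 6.04 (interval 3.74 to 9.23) in Fcmr+/+ and 2.82 (interval 2.44 to 3.24) in Fcmr-/- cells. Pairs with Ly6c1 rested on at most 11 cells, and in Fcmr-/- cells were 3.87 (interval 1.77 to 7.34) with Ly6c2 and 8.73 (interval 2.38 to 22.4) with Ly6i. The ratios of Ly6a and Ly6i were 4.60 and 1.62, of Ly6a and Ly6e 1.59 and 1.17, of Ly6c2 and Ly6e 1.57 and 1.18, and of Ly6e and Ly6i 1.51 and 1.2005. In Fcmr+/+ cells the interval of Ly6a and Ly6i (2.81 to 7.11) overlapped that of Ly6c2 and Ly6i. A ratio has less room above 1 where a gene is found in most cells, as Ly6e was. Ratios of the 2 libraries, and of pairs with and without Ly6e, are therefore not on 1 scale. Spearman's correlation over cells, which the same depth of 5000 UMIs and many zeros limit, was for Ly6a and Ly6e 0.33 over 6352 Fcmr+/+ cells and 0.54 over 7999 Fcmr-/- cells, and for Ly6a and Ly6c2 0.24 and 0.33.

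**Figure D4:**
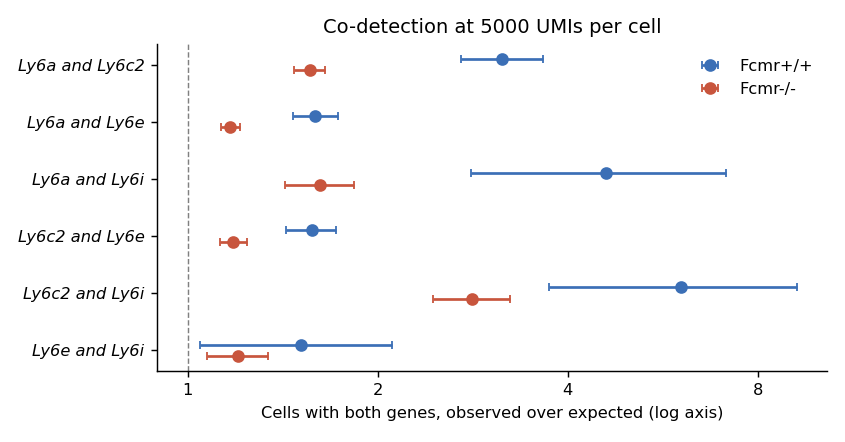
Observed over expected number of cells with UMIs of both genes of a pair (log axis) at 5000 UMIs per cell, for Fcmr+/+ (blue) and Fcmr-/- (red) cells; bars are exact 95% Poisson intervals and the dashed line at 1 marks independence. All 6 pairs lie above 1 in both libraries. The pair of Ly6c2 and Ly6i is highest, at 6.04 and 2.82, but in Fcmr+/+ cells its bar overlaps that of Ly6a and Ly6i. Ly6c1 is left out for its few UMIs.

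Within clusters, the co-detection of Ly6a and Ly6c2 varied. In Fcmr-/- cells it was 1.13 (interval 1.05 to 1.23) in cluster 1, 1.16 in cluster 9 and 1.21 in cluster 2, while cluster 6 gave 2.06 (interval 1.62 to 2.60). The whole library gave 1.56. In clusters 1 and 9, 74.4% and 72.3% of Fcmr-/- cells had a Ly6a UMI after thinning, which leaves their ratios too little room to reach 1.56. Ratios of clusters with unlike shares are not on 1 scale, so these values do not show a weaker link in clusters 1 and 9. In Fcmr+/+ cells it was 1.502 (interval 1.21 to 1.84) in cluster 2 and 2.34 (interval 1.54 to 3.404) in cluster 7, below the 3.15 of the whole library, and 4.59 (interval 2.72 to 7.25) in cluster 3. The interval held 1 in clusters 1, 5, 6 and 9 of Fcmr+/+ cells and in clusters 4, 7 and 8 of Fcmr-/- cells. It lay above 1 in clusters 3 and 5 of Fcmr-/- cells, and in cluster 4 of Fcmr+/+ cells on only 2 cells with both genes. In both cluster 8 and cluster 10 of Fcmr+/+ cells and in cluster 10 of Fcmr-/- cells 0 cells had both genes, with fewer than 1 expected.

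To set the Ly6 genes beside programs that include no Ly6 gene, cells thinned to 5000 UMIs were put into bins by their summed UMIs of a gene list, with bin limits common to both libraries. Over the bins of 41 type I interferon genes, Ly6a went from 10.98 CPM in the lowest to 194 CPM in the highest of 5 bins in Fcmr+/+ cells, and from 72.2 to 846 CPM in Fcmr-/- cells. Over the 4 bins of 25 type II interferon genes it went from 29.4 to 334 CPM and from 102 to 998 CPM. Ly6a was thus higher with each step of both programs in both libraries, and at every step it was higher in Fcmr-/- cells, by 4.36-fold to 9.86-fold over type I bins and by 2.99-fold to 6.02-fold over type II bins. The top type II bin held 2224 Fcmr-/- and 293 Fcmr+/+ cells. Their mean list UMIs per cell were 15.1 and 12.0, so the libraries were not at the same level within this bin. The type II list itself had a median log2 ratio of 1.44 between the libraries, with 15 of its 20 genes over 5 CPM at least 2-fold higher in Fcmr-/- cells, and the type I list a median of 0.56, with 4 of 38. Over all 8701 genes the share was 0.793%. The lists were chosen with earlier results of these data known, so these counts are a description only.

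Ly6c2 and Ly6e followed the same lists. Over type I bins Ly6c2 went from 15.2 to 166 CPM in Fcmr+/+ and from 23.3 to 383 CPM in Fcmr-/- cells, and Ly6e from 140.4 to 672 CPM and from 224 to 1228 CPM. In the top type II bin the 2 libraries had like levels of Ly6c2, 218 and 244 CPM, a ratio of 1.12 whose interval (0.997 to 1.26) held 1. Ly6a and Ly6e differed there by 2.99-fold (interval 2.73 to 3.28) and 1.54-fold (interval 1.44 to 1.64), in cells not matched on the list within the bin. Ly6i differed by 2.21-fold there (interval 1.37 to 3.78), so that of these 4 members Ly6c2 alone had an interval that held 1 in the cells with most type II transcripts.

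The monocyte list (Ccr2, Vcan, Plac8, Chil3, Hp, F13a1, Fn1, Thbs1 and F10) set Ly6a and Ly6c2 apart. Along its 5 bins, Ly6c2 was higher with more monocyte transcripts in both libraries, from 3.92 to 136 CPM in Fcmr+/+ and from 31.0 to 221 CPM in Fcmr-/- cells. Ly6a in Fcmr+/+ cells stood at 12.3, 25.2, 45.4, 92.6 and 111 CPM from the lowest to the highest bin, so that it followed the monocyte program as Ly6c2 did. In Fcmr-/- cells it stood at 480.4, 489.7, 488 and 435 CPM in the first 4 bins and at 287 CPM in the highest, so that it was high in cells with few monocyte transcripts and lowest in those with most. The ratio between the libraries was 39.1-fold (interval 32.0 to 48.4) in the lowest and 2.58-fold (interval 2.36 to 2.82) in the highest bin. Cluster 1 held 36.5% of the Fcmr-/- cells in the lowest bin and 10.1% in the highest. Without it, Ly6a in Fcmr-/- cells was 217 CPM (interval 205 to 229.7) in the lowest, 323 CPM (interval 309 to 338) in the fourth and 237 CPM (interval 226 to 249) in the highest bin, and the intervals of the lowest and highest bins overlapped, while Fcmr+/+ cells without cluster 1 still went from 10.0 to 106 CPM.

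Along the mature macrophage list (12 genes, among them Mrc1, Trem2 and Cd163), Ly6c2 was lower in the highest than in the lowest bin, 37.1 against 97.7 CPM in Fcmr+/+ and 53.2 against 242 CPM in Fcmr-/- cells. Ly6a went from 107 to 37.8 CPM in Fcmr+/+ cells but stood at 386 CPM in the lowest, 514 CPM in the middle and 372 CPM in the highest bin of Fcmr-/- cells, and the ratio of the end bins was 0.966, whose interval (0.917 to 1.02) held 1. Ly6i was lower in the highest than in the lowest bin of both libraries, from 6.99 to 1.54 CPM and from 26.8 to 2.50 CPM. In Fcmr+/+ TMPs Ly6a thus varied with both lists in the same sense as Ly6c2, and over all Fcmr-/- TMPs it did not. Without cluster 1, however, Ly6a in Fcmr-/- TMPs was higher at each step up to the fourth monocyte bin. For the mature macrophage list no levels without cluster 1 are given.

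**Figure D5:**
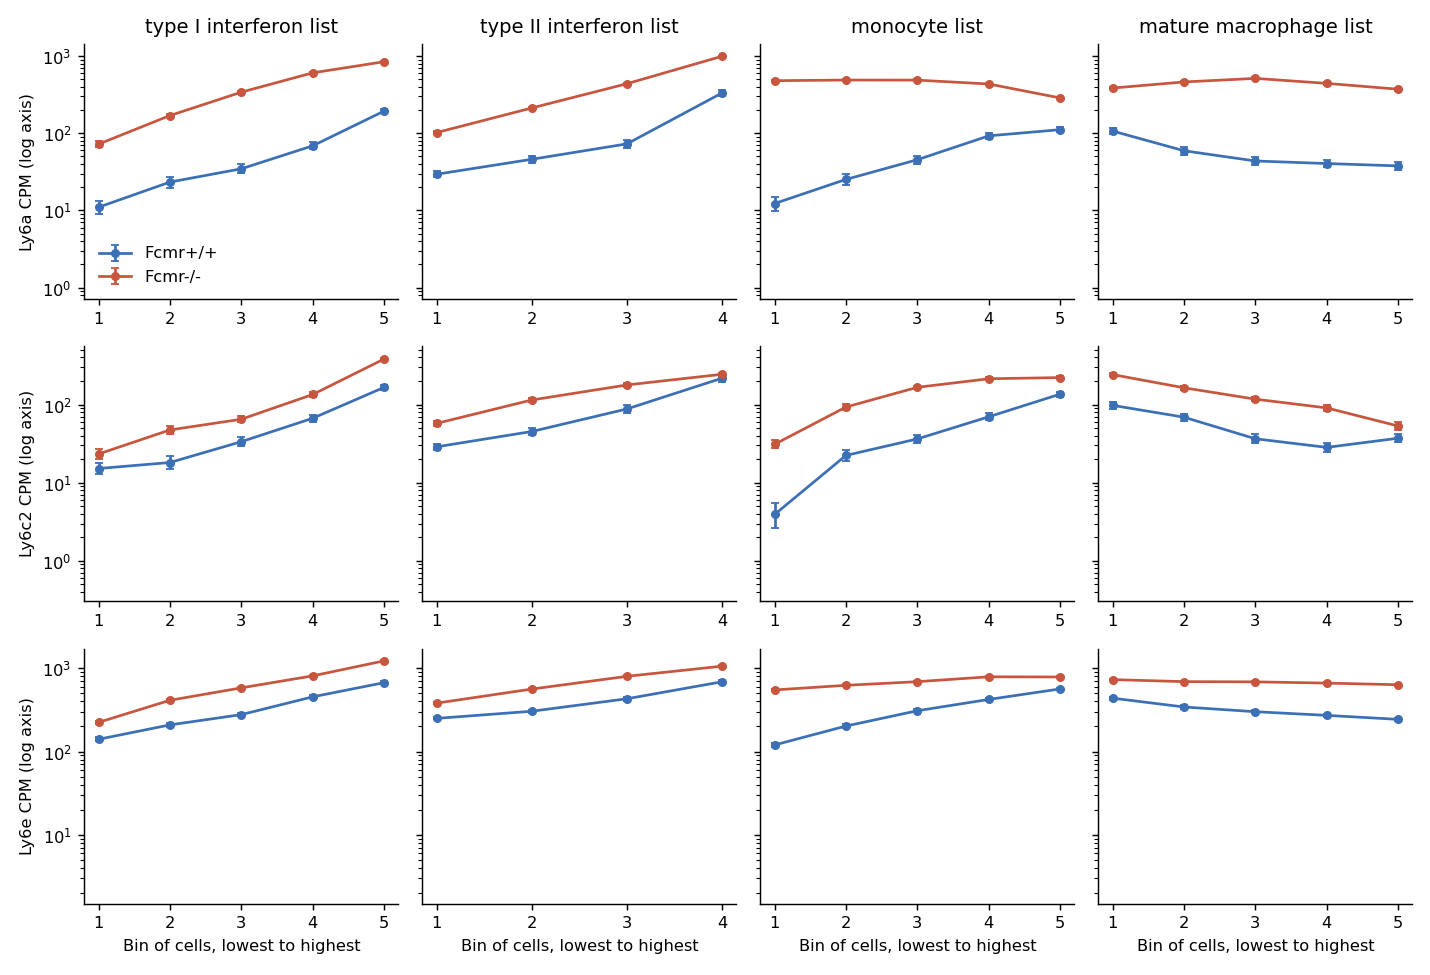
CPM (log axes) of Ly6a, Ly6c2 and Ly6e (rows) in bins of cells by their summed UMIs of the type I interferon, type II interferon, monocyte and mature macrophage lists (columns), at 5000 UMIs per cell, for Fcmr+/+ (blue) and Fcmr-/- (red) cells; bars are exact 95% Poisson intervals. Along the monocyte list Ly6a goes from 12.3 to 111 CPM in Fcmr+/+ cells and from 480.4 to 287 CPM in Fcmr-/- cells, while Ly6c2 goes up in both.

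The genes whose pattern was most like that of each member were found by Pearson's correlation of log2(CPM + 1) over the 20 sums of cluster and library, given as a description since the sums share 2 libraries. Nearest to Ly6a among 6565 genes with at least 20 CPM in 1 of the sums were Klra2, a receptor of the Ly49 family (0.96), the guanylate-binding protein gene Gbp4 (0.95), Ly6e (0.95), AW112010 (0.92) and Slco3a1 (0.92). Nearest to Ly6c2 were Slfn1, Ms4a4c, C3, Ly6i and Plbd1 (0.94 to 0.95), and nearest to Ly6i were Zbp1, Ly6c2, Slfn1, Ms4a4c and Klra2 (0.94 to 0.95). Ly6e was nearest to Cfb, Klra2, Ly6a, Nmi and Il2rg (0.93 to 0.95). Over these 20 sums Ly6a and Ly6e were thus among the 5 nearest genes of each other, as were Ly6c2 and Ly6i, while Ly6a and Ly6c2 correlated at 0.81. The 20 sums include the shift between the libraries. Over Fcmr+/+ sums alone, Ly6a correlated at 0.97 with Ly6e, 0.96 with Ly6i and 0.90 with Ly6c2, and Ly6c2 with Ly6i at 0.91. There Ly6i was thus nearer to Ly6a than to Ly6c2. Over Fcmr-/- sums alone the same pairs gave 0.92, 0.88, 0.79 and 0.98. For Ly6c1, with 7 and 41 UMIs, the nearest gene was at 0.70.

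Levels of transcripts of other cell types are given beside Ly6a because endothelial, fibroblast and T cells can express it. In thinned Fcmr-/- cells, the 7 measured genes of the T and NK list summed to 26.6 CPM in cells with and 2.04 CPM in cells without a Ly6a UMI, and in Fcmr+/+ cells to 1.19 and 0.845 CPM. Cells with any T and NK UMI numbered 17 in Fcmr+/+ and 113 in Fcmr-/- TMPs, and without them the log2 ratio of Ly6a was 3.43. Endothelial genes summed to 8.92 and 8.24 CPM in Fcmr+/+ and 14.6 and 16.1 CPM in Fcmr-/- cells with and without Ly6a, and without thinning the whole list stood at 7.09 and 12.8 CPM in the 2 libraries. Of its 7 genes, Kdr had 357 UMIs in Fcmr+/+ and 861 in Fcmr-/- TMPs (2.78 and 6.91 CPM, log2 ratio 1.06), Pecam1 373 and 522, Cdh5 96 and 98, and Egfl7 78 and 104, while Emcn, Plvap and Cldn5 had at most 5 UMIs in either library. The part of cells with these transcripts in the Ly6a result was not tested beyond the shares and left-out cells given next. Fibroblast genes summed to 0.88 CPM in Fcmr+/+ and 0.818 CPM in Fcmr-/- TMPs.

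Of the Ly6a UMIs in the Fcmr-/- library, cells with at least 3 UMIs of a list held 0.956% for the T and NK list (32 cells), 0.976% for the endothelial list (84 cells), 0.0947% for the fibroblast list (5 cells) and 1.09% for the B cell list (54 cells). The shares were larger for the neutrophil list, 10.4% in 452 cells, the melanoma list, 18.7% in 771 cells, and the dendritic list, 26.3% in 1184 cells. Ly6a stood at 603, 608 and 522 CPM in these cells, against 466 CPM over all Fcmr-/- cells. In the Fcmr+/+ library the shares for these lists were 6.39% in 314 cells, 16.0% in 533 cells and 37.2% in 1486 cells. Without the 5% of cells of each library with the highest doublet scores, the log2 ratio of Ly6a was 3.43. Without all cells with at least 3 UMIs of a list other than melanoma (1809 Fcmr+/+ and 1674 Fcmr-/- cells) the log2 ratio of Ly6a was 3.41, against 3.44 with them.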

How the data were processed

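Per the labels and the study's methods, the authors sequenced both libraries with 3′ chemistry and ran Cell Ranger against GRCm38, and what they deposited is whole-number UMI counts for each gene in each cell barcode, without normalization. Seurat 2.1.0 is named in the submitters' processing notes. The study's limits on cells were kept: 200 to 7000 genes, up to 30% mitochondrial UMIs, and genes seen in 3 or more cells. Clusters were made in Seurat 5.3.0 (R 4.3.3) from 1339 variable genes, of which 6 Ly6 family genes were then left out, with 10 principal components, 30 neighbors and resolution 0.8. All other steps used Python 3.11.15, numpy 2.4.6 and scipy 1.17.1, with 1 CPM added before log2 ratios and a minimum of 5 CPM in either group for counts of genes. Each genotype being 1 library, no test was made, and the depth per library sets the width of the intervals. Scrublet (scanpy 1.11.5; expected share 6%) called 0 doublets in each library and was taken as not having worked, so an alternative left out the 5% of cells with the highest scores. Cell Ranger counts reads that map to 1 gene, so reads shared by near-identical genes are lost. Named genes were the members, family genes with at least 5 CPM, the 5 genes most like each member, and list genes that a result needs. The members and lists were chosen with earlier results of these data known, and 1 gene of the monocyte list is not reported here and was left out of it. Scripts were tested on simulated data, and alternatives covered scaling, depth, cell limits, doublets, clusters and the pseudocount.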

Additional observations from a re-analysis of the deposited data

Results flagged for a closer look

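Ly6a moved in opposite senses along the monocyte list in the 2 libraries. The log2 ratio of its level in the highest to that in the lowest bin was 3.08 in Fcmr+/+ cells and -0.74 in Fcmr-/- cells. The difference was not tested, since each genotype is 1 library, and the negative value rests on cluster 1: without it the highest and lowest bins of Fcmr-/- cells had 237 and 217 CPM.

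Ly6c2 was lower in Fcmr-/- cells in cluster 7, with a log2 ratio of -0.33, while it was higher in 8 of the other clusters. This difference was not tested either. The interval of the ratio was above 1 in 6 of 6 clusters at resolution 0.4, but in 12 of 15 at resolution 1.2. It was above 1 in 8 of 10 with Ly6 genes kept among the variable genes, and in 9 of 10 with interferon genes also left out.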

How the results depend on the processing

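Of 94 alternative values, 56 stayed within the counting interval or within 1.5 times the count, 38 moved further and 0 changed sign. In the order Ly6a, Ly6c2 and Ly6e, the log2 ratio between the libraries was 3.00, 1.58 and 1.17 as the mean of each cell's CPM, 3.01, 1.54 and 1.16 in thinned cells, 3.25, 1.68 and 1.26 with at most 5000 genes and 10% mitochondrial UMIs, 2.52, 0.96 and 0.91 as the mean over clusters, and 2.82, 1.42 and 1.10 without cluster 1. Ly6i gave 0.89 over clusters, 1.61 without cluster 1 and 2.70 with a pseudocount of 0.1 CPM. Ly6c1 gave 1.47 with that pseudocount and 1.76 when summed with Ly6c2. Ly6e gave 1.34 without cells with markers of other types. The means over clusters of Ly6a, Ly6c2 and Ly6e became 2.38, 1.12 and 0.82 at resolution 1.2, and those of Ly6c2 and Ly6e 1.14 and 0.96 at resolution 0.4.

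The log2 ratio of Ly6a with to without Ly6c2 in Fcmr+/+ cells was 2.67 after thinning, 3.26 with at least 3 Ly6c2 UMIs and 1.63 over clusters. In Fcmr-/- cells it was 1.49, 1.67 and 1.06 in the same settings, 1.57 within depth quartiles and 1.503 without cells with markers of other types. Co-detection of Ly6a and Ly6c2 without thinning was 2.37 in Fcmr+/+ and 1.33 in Fcmr-/- cells. At 1.5-fold, 209 genes were higher and 147 lower in Fcmr-/- cells, against 69 and 25 at 2-fold.

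The settings without cluster 1, without barcodes found in both libraries and without T and NK UMIs were chosen after seeing the data. Depth limits Ly6c1 and Ly6i within clusters. No paired analysis was possible because each genotype has 1 library. The cause of these shifts was not tested.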
